A study of Mus musculus with 9 samples.

Results

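The genes described here encode the endocannabinoid system: the receptors Cnr1 and Cnr2, the synthesis enzymes Dagla, Daglb and Napepld, and the breakdown enzymes Faah, Mgll and Abhd6. These 8 genes, grouped by role, were chosen with earlier results of these data known. They stand among 34328 genes, protein-coding or long noncoding RNA, on the autosomes and X. Whole-genome bisulfite sequencing gave their CpG methylation in the nucleus accumbens, a part of the ventral striatum that takes part in reward and in the response to stress. Each of the 9 libraries stands for a male C57BL/6J mouse, 8 weeks old. Of these, 5 are labelled Control, with numbers 2, 3, 4, 5 and 8, and 4 are labelled Susceptible, with numbers 2, 3, 6 and 7. The stress named in the labels is social defeat by an aggressive CD1 retired breeder on 10 days, and the same wording accompanies both groups, so neither the handling of the Control mice nor the scoring of susceptibility is known here. The comparison asks whether methylation at these genes differed between the groups. No label names a batch, and each library is listed as a separate mouse sample.

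Endocannabinoids are lipid messengers that many neurons release from the postsynaptic side and that act back on the presynaptic terminal. Cnr1 encodes the CB1 receptor, which is abundant on terminals in the striatum and lowers transmitter release. Cnr2 encodes the CB2 receptor, known mainly from immune cells. Dagla and Daglb encode the diacylglycerol lipases that make 2-arachidonoylglycerol (2-AG), and Napepld encodes a phospholipase that makes anandamide. Faah encodes the hydrolase that breaks down anandamide, while Mgll encodes monoacylglycerol lipase, the main hydrolase of 2-AG in brain, and Abhd6 encodes a further 2-AG hydrolase. CpG-rich starts of genes are usually unmethylated and gene bodies usually methylated.

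In each library the level of a region was taken as methylated calls over all calls at its CpGs, in percent. Bisulfite does not separate methylated from hydroxymethylated cytosine. The listed calls summed to between 312981105 and 570142104 per library, and every Susceptible library had more than every Control library. Control 5 and Control 8 were noisier than the rest: the variance between the strands of a CpG, relative to the value expected from counting alone, was 18.4 and 19.7 in them and 2.38 to 6.10 in the other 7 libraries. Of 380 tiles of 1000 bp at the 8 genes, Control 5 was the lowest or highest library in 177, Control 8 in 157, Susceptible 7 in 102 and the others in 31 to 74. Mitochondrial calls read as methylated in 2.33 to 3.62% of Control and 8.96 to 15.1% of Susceptible calls, while the autosomal level lay between 74.5 and 77.1% in every library. A punch holds many cell types, so a change within cells and a change in the mix of cells cannot be told apart in any value below.

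The DNA just before the listed starts shows how differently these genes are built. The sequences below are the 250 bases before a start in RefSeq (GRCm38.p6), with each CpG in capitals. They show the start used here for each receptor, which read far apart, the internal start of Cnr1 that departs from its main start, and the gene whose body differed most between the groups.
Cnr1 main start, chr4:33924014-33924263, plus strand: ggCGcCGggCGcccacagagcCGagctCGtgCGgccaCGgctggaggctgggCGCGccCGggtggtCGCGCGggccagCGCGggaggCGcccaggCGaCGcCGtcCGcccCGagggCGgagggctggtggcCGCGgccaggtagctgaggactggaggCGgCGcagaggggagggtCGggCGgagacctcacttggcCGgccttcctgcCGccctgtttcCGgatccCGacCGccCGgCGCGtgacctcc
Cnr1 internal start, chr4:33926130-33926379, plus strand: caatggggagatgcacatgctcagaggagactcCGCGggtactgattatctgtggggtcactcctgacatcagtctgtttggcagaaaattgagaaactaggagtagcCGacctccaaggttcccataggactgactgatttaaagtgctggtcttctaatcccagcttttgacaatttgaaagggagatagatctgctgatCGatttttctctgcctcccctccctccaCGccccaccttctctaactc
Cnr2 start, chr4:135894939-135895188, plus strand: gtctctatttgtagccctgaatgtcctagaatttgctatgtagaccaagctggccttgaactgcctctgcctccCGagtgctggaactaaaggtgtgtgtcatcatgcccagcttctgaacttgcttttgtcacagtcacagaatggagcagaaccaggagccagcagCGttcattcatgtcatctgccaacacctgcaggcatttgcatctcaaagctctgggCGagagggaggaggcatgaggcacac
Mgll start, chr6:88724162-88724411, plus strand: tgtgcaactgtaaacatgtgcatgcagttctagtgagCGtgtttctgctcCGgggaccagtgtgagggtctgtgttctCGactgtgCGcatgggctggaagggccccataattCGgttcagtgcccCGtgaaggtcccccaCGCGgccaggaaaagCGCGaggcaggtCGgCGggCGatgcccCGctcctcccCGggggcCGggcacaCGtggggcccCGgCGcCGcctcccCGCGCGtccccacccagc
The Cnr1 sequence holds 36 CpGs with a level of 1.50% over the 9 libraries, and none of its CpGs had a mean above 8.37%. The Mgll sequence holds 23 CpGs at 2.80%. The Cnr2 sequence holds only 3 CpGs, at 176, 82 and 26 bases before the start, with mean levels of 73.8%, 40.9% and 62.9%. The internal Cnr1 start holds 5 CpGs at 51.6%, each listed in at most 6 of the 9 libraries. Over 32851 RefSeq promoter sequences of this length the median was 6 CpGs. The Cnr1 sequence is among the 5.94% with at least 30 CpGs, the Mgll sequence among the 17.9% with at least 20, and the Cnr2 sequence among the 37.8% with 3 or fewer.

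At the starts, the 8 genes fell into 7 unmethylated genes and 1 methylated gene. Within 1000 bp of the start, Cnr2 stood at 81.5% ± 5.63 (SD, n = 9 libraries) and the other 7 genes at 2.45 to 7.52%. Cnr2 therefore parted from every other member in every library, by a wide margin. Its level lay at the 80.8 percentile of 19386 protein-coding start windows, and that of Cnr1 at the 31.8 percentile.

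The receptors were the most unlike genes within a role. Cnr1 read 4.05%, 3.85%, 3.55%, 5.20% and 3.68% in Control 2, 3, 4, 5 and 8, against 4.28%, 4.67%, 4.71% and 2.45% in Susceptible 2, 3, 6 and 7. Susceptible 7 was the lowest and Control 5 the highest of the 9 libraries, so the groups overlapped. Cnr2 read 77.0%, 78.2%, 77.6%, 87.6% and 92.3% in the same Control libraries and 74.6%, 82.9%, 82.9% and 80.4% in the Susceptible ones. Control 5 and Control 8 were the highest for Cnr2, on 22 CpGs and 387 to 947 calls per library, against 176 CpGs and 4535 to 8417 calls for Cnr1.

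Among the synthesis genes, Napepld was the lowest at 2.45% ± 1.11 (SD, n = 9), followed by Dagla at 6.40% ± 1.85 and Daglb at 7.52% ± 1.23. Dagla has no listed start in the RefSeq table, so the gene end with more CpGs stood in for it. Among the breakdown genes, Faah stood at 2.55% ± 0.756, Mgll at 4.07% ± 0.948 and Abhd6 at 4.17% ± 1.08 (SD, n = 9). Ordered by start level, only the steps from Faah to Cnr1, from Abhd6 to Dagla and from Daglb to Cnr2 were larger than the SD of both neighbours. Cnr1 lay above Faah in 9 of 9 libraries and Dagla above Abhd6 in 8. Napepld did not differ from Faah beyond their spread, nor Cnr1 from Mgll, Mgll from Abhd6, or Dagla from Daglb.

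Averaged by role, the starts read 42.8% for the receptors, 5.46% for synthesis and 3.60% for breakdown. The receptor mean rests on Cnr2 alone, since Cnr1 read as low as the enzymes. The order of synthesis above breakdown depended on the window: within 500 bp of the start they read 1.78 and 2.35%, and within 2000 bp 13.0 and 12.3%.

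**Figure D1:**
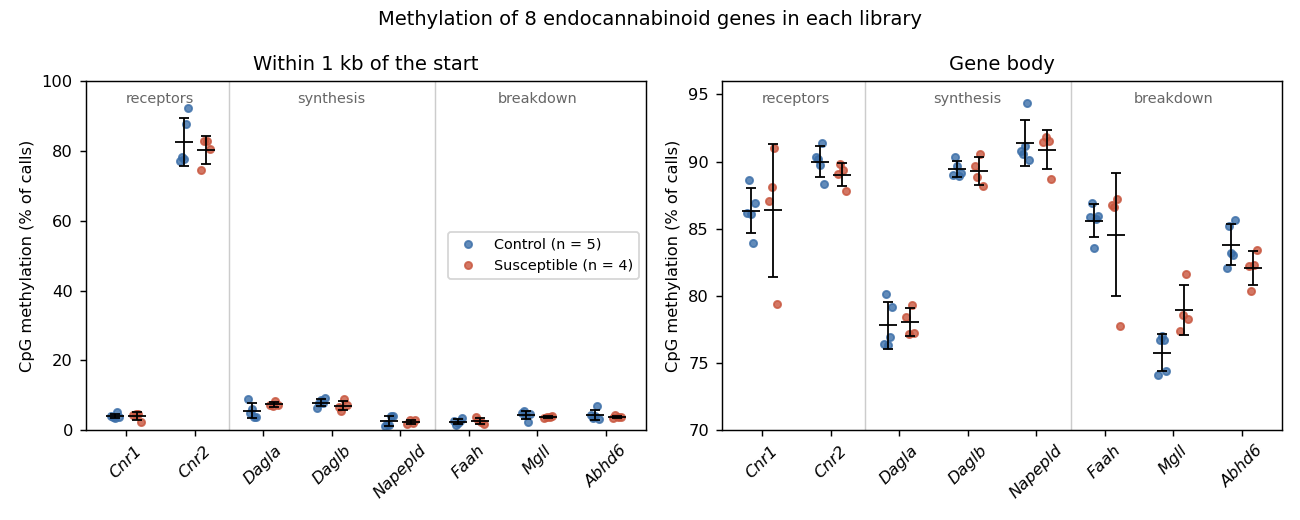
CpG methylation in percent of calls of the 8 genes within 1000 bp of the start (left) and over the rest of the gene (right, axis from 70%), 1 point per library, with group mean and SD (Control n = 5, Susceptible n = 4). Cnr2 is the only gene with a methylated start (74.6 to 92.3%), and Mgll the only body in which the groups do not overlap.

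Several genes have more than 1 listed start, and the choice mattered for Cnr1. Its starts at 33924264 and 33924644 read 4.06% and 2.84% in Control, and the internal start at 33926380 read 51.6% ± 9.45 (SD, n = 5 Control libraries) and 50.8% ± 7.21 (SD, n = 4 Susceptible libraries). The second Cnr2 start, at 135911680, was methylated like the first, at 82.7% ± 14.7 and 76.3% ± 4.77. It rests on 15 CpGs and 246 to 490 calls, and single libraries ranged from 59.7 to 99.2%. Both listed starts of Mgll and of Abhd6 read under 5% in each group mean. For the 12 listed starts of the members, all unadjusted limma-moderated p-values were 0.163 or more.

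The gene bodies were methylated in all 8 genes, between 77.2% for Mgll and 91.2% for Napepld. The body is the gene without the 1000 bp around its start. Mgll, at 77.2% ± 2.24, and Dagla, at 77.9% ± 1.39 (SD, n = 9), were the lowest, at the 23.4 and 24.8 percentile of 18860 protein-coding bodies. These are the main enzymes of 2-AG breakdown and synthesis in brain. Abhd6 followed at 83.1% ± 1.61, Faah at 85.1% ± 2.97, Cnr1 at 86.4% ± 3.26, Daglb at 89.4% ± 0.770, Cnr2 at 89.6% ± 1.08 and Napepld at 91.2% ± 1.53. Only the steps from Dagla to Abhd6 and from Cnr2 to Napepld exceeded the SD of both neighbours, each in 9 of 9 libraries. By role the bodies read 88.0% for receptors, 86.2% for synthesis and 81.8% for breakdown, while single genes ran from 86.4 to 89.6%, from 77.9 to 91.2% and from 77.2 to 85.1% within these roles.

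Mgll and Dagla also had more tiles of intermediate methylation than the other genes, counted over each gene, its start and the 5000 bp on either side. In Mgll, 50 of 105 tested tiles (47.6%) had a level between 20 and 80%, and in Dagla 31 of 68 (45.6%). The other 6 genes had 14.3 to 28.0% of their tiles in that range, and all 1041809 tested tiles 21.1%. These shares are descriptions of single genes, whose tiles are neighbours and not replicates.

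Low tiles away from the start were few. In Cnr2 the lowest tile outside the start window, chr4:135920001-135921000, read 2.72% ± 1.56 (SD, n = 9). It covers the last bases of Cnr2 and the listed start of its neighbour Fuca1, and the next tile read 3.69%. The unmethylated stretch at the far end of Cnr2 thus overlaps the start of another gene. Beyond the end of Dagla the tile chr19:10240001-10241000 read 5.84% ± 2.32 and lies within Myrf. Inside Dagla, tiles 7376, 14376 and 27376 bp from the start read 43.0%, 37.3% and 46.7%. The first and second of these overlap the gene Gm30042, and the second lies within 1000 bp of its listed start.

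Abhd6 and Mgll held low tiles inside the gene with no listed start within 1000 bp, as did Dagla at 7376 and 27376 bp. The Abhd6 tile chr14:8032001-8033000, 29612 bp from the start, read 34.7% on average. Its libraries spread from 12.8% in Control 5 to 72.4% in Control 8, while the other 7 lay between 29.7 and 39.3%. In Mgll, tiles 2088 and 63088 bp from the start read 40.4% and 44.6%. The first of them also overlaps the gene Gm26588. The lowest Mgll tile, chr6:88831001-88832000, lies just past the gene at 26.0% ± 7.92. The lowest tiles of the remaining genes outside the start window were intermediate. They read 52.5% ± 8.62 in Cnr1 at its internal start, 45.7% ± 6.05 near Napepld within Armc10, 56.1% ± 14.3 near Daglb within Rac1, and 72.3% ± 16.1 in Faah (SD, n = 9).

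**Figure D2:**
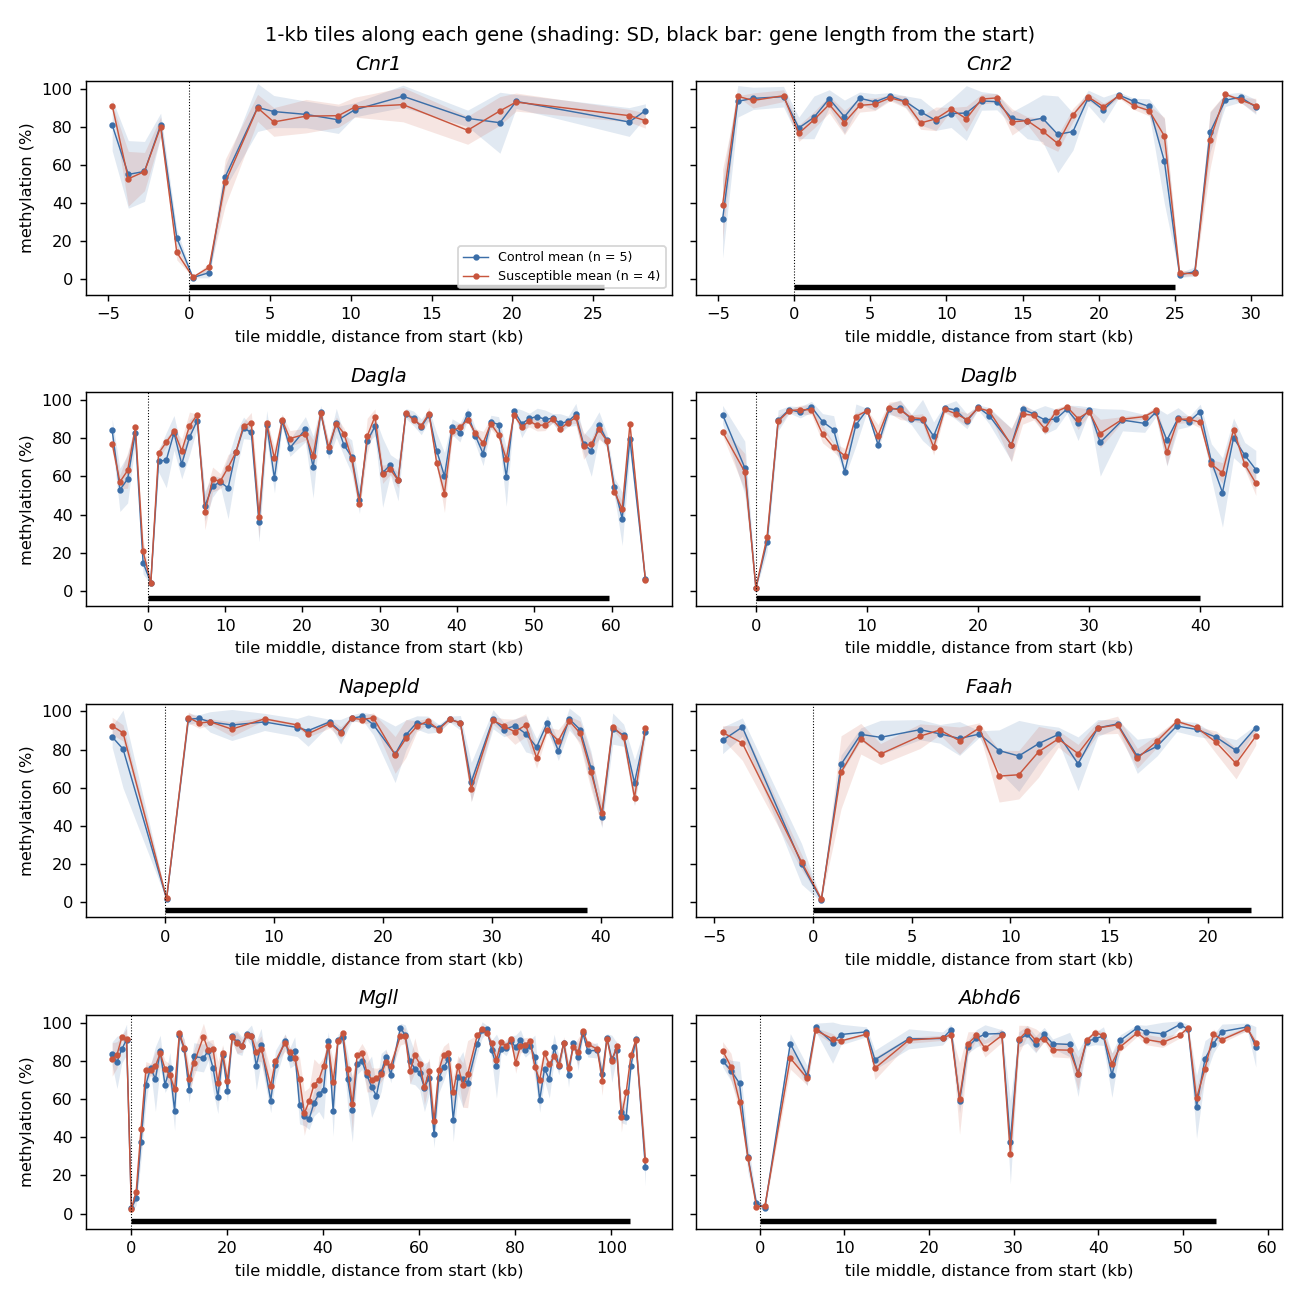
Mean methylation in percent of calls of tested 1000-bp tiles against distance of the tile middle from the start in kb, for each of the 8 genes, by group (shading: SD, Control n = 5, Susceptible n = 4, black bar: gene). Every gene except Cnr2 has a trough at its start, and the trough of Cnr2 lies at its far end, where 2 tiles read 2.72 and 3.69%.

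No start window, gene body or tile of the 8 genes differed between the groups after adjustment over all features. The test was a quasi-binomial model with limma's moderation, and its Benjamini-Hochberg adjusted p was 0.971 or more for every member start, 0.9999 for every member body and 0.997 or more for every member tile. Over all genes it called 0 of 30937 starts (0.0%), 0 of 30183 bodies (0.0%) and 0 of 1041809 tiles (0.0%). At an unadjusted p under 0.05 there were 1477 starts (4.77%), 1155 bodies (3.83%) and 45605 tiles (4.38%). limma on logit levels likewise called 0, 0 and 0, with 1166, 1100 and 33856 at an unadjusted p under 0.05.

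Of the 8 starts, none passed an unadjusted p under 0.05, beside 4.77% of all starts, and in none did the groups part, beside 1.85%. The Susceptible mean was higher at 2 of 8 starts, beside 47.4% of all starts. The median difference, Susceptible minus Control, was -0.36 percentage points over the 8 starts and -0.09 over all starts tested. The largest shift among the enzymes was at Dagla. Its start read 8.96%, 4.997%, 6.18%, 3.82% and 3.89% in Control 2, 3, 4, 5 and 8, against 7.20%, 6.98%, 8.49% and 7.10% in Susceptible 2, 3, 6 and 7. The Susceptible libraries were high and close together, but Control 2 lay above all of them, and the difference of 1.87 points had an exact permutation p of 0.127. Without Control 2 it was 2.72 points, with an unadjusted limma-moderated p of 0.00391, and without Control 5 and Control 8 it was 0.731 points (0.408). Within 500 bp of the start it was 0.212 points, and over CpGs listed in all 9 libraries 0.165 points.

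The remaining starts moved by less than their spread. Cnr1 differed by -0.0386 points (exact permutation p = 0.944). Cnr2 differed by -2.37 points (exact permutation p = 0.556), and by 2.57 points without Control 5 and Control 8. Daglb, Mgll, Abhd6 and Napepld differed by -0.849, -0.602, -0.546 and -0.167 points and Faah by 0.242 points, with exact permutation p-values of 0.309 to 0.833. The Daglb difference was -1.48 points without Susceptible 6, -0.552 without Control 8 and -0.368 without Susceptible 3.

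Of the 8 bodies, Mgll alone passed an unadjusted p under 0.05, 1 of 8 beside 3.83% of all bodies, of which 2.09% were higher in Susceptible libraries. It alone had groups that did not overlap, beside 1.36% of all bodies and 0.636% in that direction. The Susceptible mean was higher in 3 of 8 bodies, beside 46.2% of all bodies. The median difference was -0.32 points over the 8 bodies and -0.12 over all bodies. Cnr1, Dagla and Daglb differed by 0.0209, 0.219 and -0.109 points. For Cnr1, Susceptible 7 was the lowest library at 79.4% and Susceptible 6 the highest at 91.0%. Without these in turn the Cnr1 difference was 2.35 and -1.52 points. Faah differed by -1.04 points, but this rests on Susceptible 7 at 77.7%, since the other 3 Susceptible libraries read 86.6 to 87.2% and the difference without it was 1.23 points. Abhd6 differed by -1.74 points (exact permutation p = 0.159), Cnr2 by -0.978 points (exact permutation p = 0.206) and Napepld by -0.526 points (exact permutation p = 0.635). The Cnr2 difference was -0.626 points without Control 5 and -0.579 without Susceptible 7. That of Napepld turned to 0.217 points without Control 5. The unadjusted limma-moderated p of Abhd6 was 0.0292 without Control 2, where 3.93% of all bodies were under 0.05. It was 0.031 without Susceptible 7 and 0.181 without Susceptible 3. Over CpGs listed in all 9 libraries the Abhd6 difference was -0.11 points.

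Methylation of the Mgll body was higher in every Susceptible library than in any Control library. The Control libraries 2, 3, 4, 5 and 8 read 74.1%, 76.7%, 77.0%, 76.7% and 74.4%. The Susceptible libraries 2, 3, 6 and 7 read 77.4%, 78.5%, 81.6% and 78.3%. Susceptible 6 was the highest, and the gap between the groups was narrow, from Control 4 at 77.0% to Susceptible 2 at 77.4%. The means were 75.8% ± 1.40 (SD, n = 5) and 78.9% ± 1.83 (SD, n = 4), over 1468 CpGs and 33283 to 63696 calls per library. The difference of 3.16 points had an exact permutation p of 0.00794, the smallest possible with 5 and 4 libraries, and an unadjusted limma-moderated p of 0.00458. It did not pass adjustment over 30183 bodies (limma-moderated adjusted p = 0.9999), and its size lay at the 89.9 percentile of 18860 protein-coding bodies.

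The difference kept its sign in each of the 17 alternatives run. Since the groups do not overlap, fits that left out libraries, the replicate block among them, could not reverse this sign. The fit with the dispersion of each body taken alone uses the same difference. With 1 library left out, the difference ranged from 2.28 points without Susceptible 6 to 3.68 points without Susceptible 2. Without Control 5 and Control 8 it was 3.003 points, and with the listed calls of each library as a covariate 3.41 points. Listed calls themselves parted the groups, so that fit cannot fully separate them from the group. The start of the same gene differed in the other direction, with Mgll at 4.34% ± 1.25 (SD, n = 5) and 3.74% ± 0.193 (SD, n = 4) there and overlapping groups. That difference of -0.602 points was -1.13 without Control 5, with an unadjusted limma-moderated p of 0.0368, and -1.20 without Control 5 and Control 8, with one of 0.0329. It was -0.327 points without Control 3 and turned to 0.137 points with shared CpGs weighted equally.

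The higher level was spread along the gene and was plainest at tiles of intermediate methylation. Of 105 tested tiles in and around Mgll, 16 passed an unadjusted p under 0.05 and all 16 were higher in Susceptible libraries, beside 2.18% of all tiles for that direction. In 72 tiles (68.6%) the Susceptible mean was higher, beside 47.6% of all tiles. Among the 50 tiles between 20 and 80%, 42 were higher (84.0%) and 13 passed (26.0%), against 53.4% and 4.80% of all tested tiles at such levels. Among the 53 Mgll tiles at 80% or more, 29 were higher (54.7%) and 3 passed (5.66%), against 45.7% and 1.38% of all tested tiles. Tiles of intermediate methylation thus passed in this direction more often over all tested tiles too. Neighbouring tiles share libraries and cells, and these counts follow from 1 gene singled out after its values were seen. Without Susceptible 6, 7 tiles passed higher and 1 lower, beside 2.84% of all tiles at an unadjusted p under 0.05 in either direction. Without Control 5 and Control 8, 14 of 112 tiles passed higher and 1 lower, beside 4.99% of all tiles. With the dispersion of each tile taken alone, 9 passed higher and 1 lower, beside 4.37% of all tiles, and with 20 calls per cytosine 9 of 81 passed, all higher, beside 4.71%.

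In 3 equal stretches from the start, a division made after the data were seen, the Mgll body read 77.4, 68.0 and 82.0% in Control means, against 80.1, 73.0 and 83.8% in Susceptible means. The middle part had the lowest level and the largest difference, 5.04 points, with an exact permutation p of 0.0159. The first part differed by 2.71 points (exact permutation p = 0.0397) and the last by 1.83 points (exact permutation p = 0.0238). Adjusted over 40 such segments of the 8 genes, each of these exact permutation p-values became 0.317. The groups overlapped in all 3 stretches. The only segment of the 40 whose groups did not overlap was the 50 kb before Abhd6, at 79.9% ± 1.10 (SD, n = 5) and 77.5% ± 0.906 (SD, n = 4). These means lay -2.40 points apart, with an exact permutation p of 0.0159 before and 0.317 after adjustment. Segments were taken for the 8 genes only, so the share of segments with separate groups over all genes is not known. The 50 kb after Faah differed by -3.34 points (exact permutation p = 0.0317, adjusted 0.317), with overlapping groups. The 50 kb before Mgll differed by 0.634 points (exact permutation p = 0.714) and the 50 kb after it by 1.81 points (exact permutation p = 0.23).

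**Figure D3:**
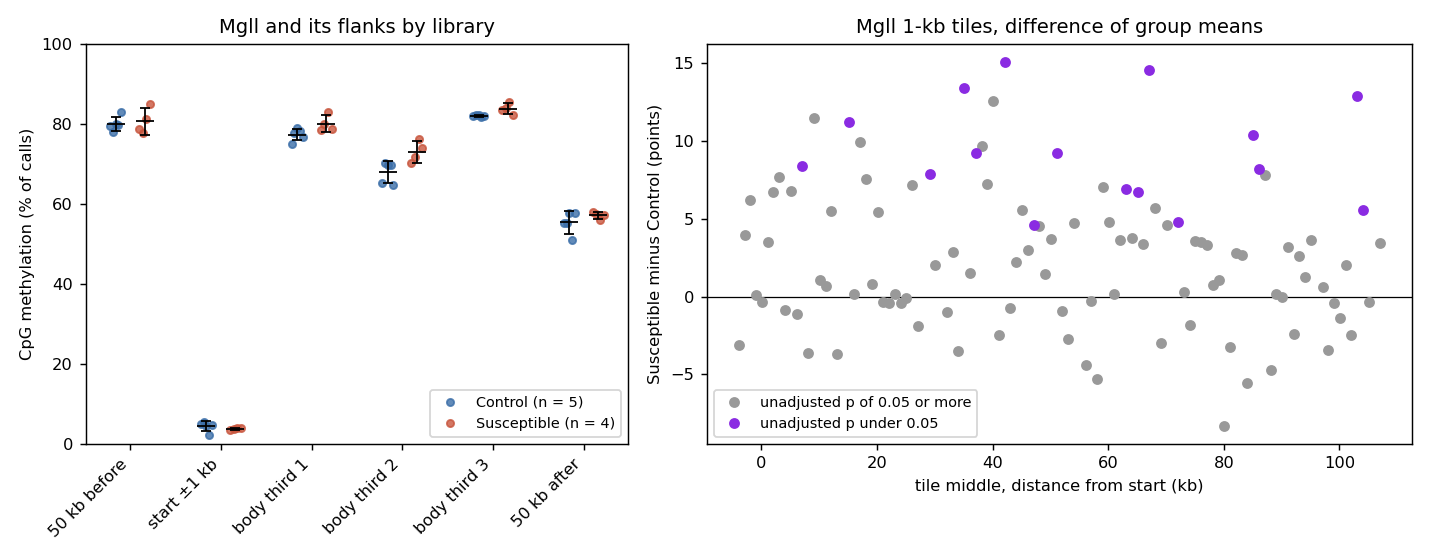
Left, CpG methylation in percent of calls of Mgll by segment in each library with group mean and SD (Control n = 5, Susceptible n = 4), and right, the difference of group means in percentage points for 105 tiles against distance from the start in kb. The 16 tiles at an unadjusted p under 0.05 all lie above the zero line, and the 50 kb before and after the gene differ by 0.634 and 1.81 points.

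Other values of the libraries stand beside the Mgll result, and not all of them part the groups. Listed calls and the mitochondrial level parted the groups completely, as given above. Gene bodies of 10 markers of striatal projection neurons, taken as the mean per library, read 55.5%, 57.8%, 61.5%, 57.7% and 54.7% in the 5 Control libraries, against 56.8%, 56.6%, 64.4% and 67.2% in the 4 Susceptible ones, so they overlapped. In 9 of these 10 genes the Susceptible mean was higher, with a median difference of 4.17 points, beside 46.2% of all bodies with a higher mean. These genes share the same libraries, and the mean over the list had an exact permutation p of 0.206. The marker bodies ranged from 61.4 to 67.9% in Control and 63.8 to 66.4% in Susceptible libraries for 7 neuron genes, and from 63.6 to 69.0% and 63.2 to 67.4% for 8 oligodendrocyte genes. They ranged from 76.9 to 79.6% and 72.0 to 78.5% for 6 astrocyte genes, where 0 of 6 Susceptible means were higher, and from 81.1 to 84.8% and 79.0 to 82.4% for 7 microglia genes. The Susceptible mean was higher in 5 of 7 neuron, 4 of 8 oligodendrocyte, 1 of 7 microglia and 3 of 6 cortical projection neuron bodies. Susceptible 7 was the lowest library for the oligodendrocyte, astrocyte and microglia lists and the highest for the striatal list. For 6 cortical projection neuron genes the bodies ran from 36.8 to 44.1% and 38.5 to 42.0%. The mean over the list had an exact permutation p of 0.246 for astrocyte, 0.262 for microglia and 0.746 for oligodendrocyte bodies. It was 0.778 for neuron and 0.992 for cortical projection neuron bodies. The part of these values in the Mgll difference was not tested.

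Across the 8 genes and the 5000 bp on either side, 380 of 455 tiles held enough data. At an unadjusted p under 0.05 were 25 of them (6.58%), beside 4.38% of all tiles, with 18 higher in Susceptible libraries and 7 lower, beside 2.18% and 2.19%. The groups did not overlap in 9 (2.37%), beside 1.56%, with 5 higher and 4 lower, beside 0.598% and 0.96%. Mgll held 16 of the 25, which is 15.2% of its 105 tiles. Outside Mgll the count was 9, a smaller share of the tiles there than the 4.38% of all tiles. Daglb had 4 of 45 (8.89%), Cnr1 2 of 19 (10.5%), Dagla 2 of 68 (2.94%) and Abhd6 1 of 45 (2.22%). Cnr2, Napepld and Faah had 0 of 35, 38 and 25. Leaving out 1 library at a time gave from 14 tiles without Susceptible 6 (3.68%, beside 2.84% of all tiles) to 32 without Control 4 (8.38%, beside 5.37%).

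The tile with the smallest p of all members lies near the far end of Mgll, at chr6:88827001-88828000, 103088 bp from the start. It read 50.3%, 50.4%, 48.6%, 57.5% and 46.8% in Control 2, 3, 4, 5 and 8, against 62.8%, 65.2%, 67.0% and 59.4% in Susceptible 2, 3, 6 and 7. Every Susceptible library was above every Control library, by 12.9 points in the mean, on 14 CpGs and 237 to 618 calls. The exact permutation p was 0.0159, and the limma-moderated p was 0.00147 before and 0.997 after adjustment. The adjoining tile, from 88828001, spans the end of the gene. It also had separate groups and read 77.5% ± 2.96 (SD, n = 5) and 83.0% ± 1.59 (SD, n = 4). The third such Mgll tile, from 88801001, read 86.5% ± 1.76 and 89.8% ± 0.829 in the same groups, and its difference was 1.92 points with listed calls as a covariate. The unadjusted limma-moderated p was 0.0196 for the tile from 88828001 and 0.0624 for the tile from 88801001.

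The other 6 tiles with separate groups lay in or within 5000 bp of 4 genes, 3 of them outside the gene, and differed in both directions. Higher in Susceptible libraries were a Daglb tile 8008 bp into the gene (from 143472001), at 62.5% ± 2.74 against 70.8% ± 3.81, and a tile 62376 bp from the Dagla start (from 10242001), at 79.7% ± 7.29 against 87.4% ± 2.37. Lower were tiles at -2992 and 40008 bp from the Daglb start, with differences of -9.03 and -5.73 points. The first of them lies outside the gene and the second spans its end. Also lower was a tile past the end of Faah, 22424 bp from its start, at -4.57 points (-2.25 without Susceptible 7). An Abhd6 tile 49612 bp into the gene was lower by -5.60 points. The Dagla tile, which lies outside the gene, turned to -0.46 points with listed calls as a covariate, the Daglb tile at 40008 bp to -3.37 points, and the Abhd6 difference was -0.669 points in a tile shifted by 500 bp. Tiles in and near Daglb parted the groups in opposite directions. The unadjusted limma-moderated p was 0.125 for the Daglb tile at 8008 bp, 0.0885 for the Dagla tile and 0.0687 for the Faah tile. It was 0.0345 and 0.0306 for the Daglb tiles at -2992 and 40008 bp and 0.0262 for the Abhd6 tile. After adjustment it was 0.997 for each of the 6 tiles. The Daglb tile at -2992 bp rests on 4 to 6 CpGs per library and the Abhd6 tile on 4 to 7. In the Abhd6 tile Control 4, 5 and 8 read 100%.

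**Figure D4:**
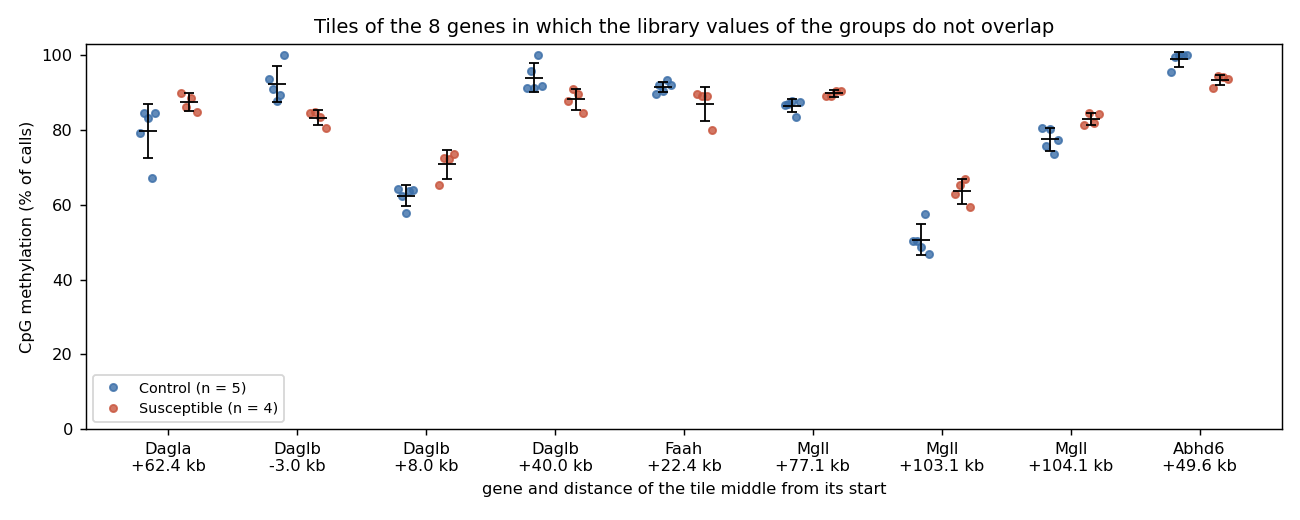
CpG methylation in percent of calls in each library for the 9 tiles whose groups do not overlap, with group mean and SD (Control n = 5, Susceptible n = 4), labelled by gene and distance from its start in kb. Points of the groups are separate in each tile, 5 tiles with Susceptible higher and 4 with it lower, and the difference of means is largest in the Mgll tile at 103088 bp (12.9 points).

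At Cnr1 the tile with the smallest p spans the shore before the unmethylated start. The tile chr4:33923001-33924000 read 18.0%, 16.5%, 23.6%, 22.5% and 27.9% in Control 2, 3, 4, 5 and 8, against 14.7%, 15.8%, 17.6% and 8.57% in Susceptible 2, 3, 6 and 7. Susceptible 7 was the lowest and Control 8 the highest, and Susceptible 6 lay above Control 3, so the groups overlapped. The difference of -7.53 points had an exact permutation p of 0.0397 and a limma-moderated p of 0.0092 before and 0.997 after adjustment. It shrank to -3.32 points with each shared CpG weighted equally, and a tile shifted by 500 bp differed by -0.19 points. For Dagla the tile of smallest p, chr19:10288001-10289000, read 58.9% ± 7.65 (SD, n = 5) and 69.4% ± 5.83 (SD, n = 4), which is 10.5 points apart with overlapping groups. With listed calls as a covariate that Dagla difference was 5.66 points. The tiles of smallest p at Cnr2, Napepld and Faah, of which the Cnr2 tile lies in Fuca1 and the Faah tile at -3576 bp, before the gene, differed by 3.09, -1.79 and -8.38 points, with unadjusted limma-moderated p-values of 0.056, 0.125 and 0.0618. The Napepld difference was -1.13 points without Susceptible 7. The Cnr2 difference was 1.74 points without Control 5 and 0.51 with listed calls as a covariate, and the Faah tile differed by 1.90 points when shifted by 500 bp.

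The wider pathway was taken as 21 other genes of cannabinoid signalling, 8 receptors or receptor partners, 8 of synthesis and 5 of breakdown and transport. None was called at the start or over the body. At an unadjusted p under 0.05 there were 1 start higher and 1 lower, beside 2.25% and 2.52% of all starts, and 0 bodies, beside 3.83%. Cnrip1, which encodes a protein that binds the CB1 receptor, read 1.9997% ± 1.78 at its start in Control libraries (SD, n = 5) and 5.64% ± 1.39 in Susceptible ones (SD, n = 4). Its exact permutation p was 0.0238 and its limma-moderated adjusted p 0.971. Abhd4, an enzyme of an alternative route to anandamide, read 12.6% ± 4.53 (SD, n = 5) and 7.75% ± 1.46 (SD, n = 4) in the same order (exact permutation p = 0.0873, limma-moderated adjusted p = 0.971). The groups overlapped at both genes. The median difference of the 21 genes was -0.02 points at starts and -0.19 over bodies, against -0.09 and -0.12 over all genes tested.

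Methylated starts like that of Cnr2 recurred among these genes. Gpr55, Gpr18, Gpr119 and Trpv1, which encode further receptors that respond to endocannabinoid-like lipids, read 91.4%, 86.0%, 87.3% and 91.8% at their starts in Control. Gdpd3, Ptpn22 and Inpp5d of the synthesis list also had methylated starts, at 87.5%, 79.7% and 88.2%. Ppara and Pparg, nuclear receptors for lipids, read 4.49% and 4.65%.

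Among 17918 protein-coding genes with both regions measured, the 3 most like Cnr1 were Rsl24d1, Eif2s2 and Frrs1l. Likeness was the mean absolute difference in level over start and body in 9 libraries, and it was 1.04, 1.13 and 1.18 points. Their starts read 4.52, 2.79 and 4.20% and their bodies 86.9, 86.7 and 86.8%, beside 4.05 and 86.4% for Cnr1.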

How the data were processed

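Whole-genome bisulfite libraries of nucleus accumbens punches, prepared per the labels' protocols by Zymo Pico Methyl-seq, were deposited as 1 file per library listing CpG cytosines by strand. Bismark, Bowtie, Picard and mm10 are named per the submitters' processing notes, without roles or versions. Per the file headers, the deposited coverage is a count of calls, and the authors give percentages for C and for T. No entry has under 10 calls, so the sums are not the full depth. Counts times percent gave whole methylated calls, and strands were added per CpG.

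Gene bounds and starts came from RefSeq tables of GRCm38.p6, taking the most upstream listed start. Dagla has none, and its CpG-richer end was used. Of the 396389 CpGs listed in RefSeq promoter sequences, 100% fall on a CG there. Exons were not used here. Features needed 3 CpGs and 20 calls in every library.

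Groups were compared with a quasi-binomial logistic model on counts over all features, with the Pearson dispersion moderated as in limma (squeezeVar) with a floor of 1, an F test and Benjamini-Hochberg adjustment. A call needed an adjusted p under 0.05. Single values also have a two-sided exact permutation p, which cannot go below 0.00794. The code was tested on simulated data. Alternatives were limma on logit levels, unmoderated dispersion, 20 calls per cytosine, CpGs listed in all 9 libraries, equal weight per CpG, other windows and tiles, depth as a covariate, a replicate block, and libraries left out. Named were all members at start and body, each member's tile of smallest p, its lowest tile outside the start window, tiles with groups that do not overlap, genes of the wider list at an unadjusted p under 0.05, and the 3 genes most like Cnr1. The members and lists were chosen with earlier results of these data known. The other low tiles, listed starts, level classes and segments were chosen after values were seen. Analyses used Python 3.11.15, numpy 2.4.6, scipy 1.17.1, R 4.3.3 and limma 3.58.1.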

Additional observations from a re-analysis of the deposited data

Results flagged for a closer look

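In 76 groups of library values at member regions, 8 held a library far from the rest by Dixon's gap test, which flags about 1 group in 20 by chance. Susceptible 7 was the lowest of its group in 3 of them: 88.7% over the Napepld body, where the nearest library read 91.4%, 77.7% over the Faah body (nearest 86.6%), and 80% in the Faah tile from 115995001 (nearest 89.1%). Control 5 was the highest Control at 94.4% over the Napepld body (nearest 91.2%) and the lowest at 83.4% in the Mgll tile from 88801001 (nearest 86.8%). Susceptible 6 was the highest at 8.49% at the Dagla start (nearest 7.20%). Susceptible 2 was the lowest at 65.2% in the Daglb tile from 143472001 (nearest 72.1%), and Control 2 the lowest at 95.4% in the Abhd6 tile from 8052001 (nearest 99.4%).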

How the results depend on the processing

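The differences at the Mgll body, the Cnr2 and Abhd6 bodies and the Dagla start kept their sign in every alternative run. Those of the other starts and bodies each changed it in at least 1. For the Mgll body, fits that left out libraries could not change the sign, since its groups do not overlap. The Dagla start difference nonetheless ranged down to 0.113 points, in the fit with the replicate block. There the Mgll start differed by -1.66 points and the Faah start by 1.35 points. Differences (Susceptible minus Control, in points) that changed sign were the following. With 20 calls per cytosine, the starts of Cnr1 (0.127), Cnr2 (0.996), Napepld (1.001) and Faah (-0.336) and the Dagla body (-0.152) did so. With CpGs listed in all 9 libraries, so did the starts of Cnr1 (0.32), Daglb (0.178), Napepld (0.539) and Abhd6 (0.00396) and the bodies of Cnr1 (-0.00415) and Dagla (-0.166). With those CpGs weighted equally, so did the starts of Daglb (0.766), Napepld (0.137) and Mgll (0.137) and the bodies of Cnr1 (-0.473) and Daglb (0.0601). With listed calls as a covariate, so did the starts of Cnr1 (0.223), Cnr2 (0.793), Napepld (0.83), Faah (-0.0518) and Abhd6 (0.941), the bodies of Cnr1 (-2.94), Dagla (-1.12) and Napepld (0.473), and the Dagla tile from 10242001 (-0.462). Without Control 5 and Control 8, so did the starts of Cnr1 (0.211), Cnr2 (2.57) and Napepld (0.897) and the bodies of Cnr1 (-0.614) and Napepld (0.0431). Within 500 bp, so did the starts of Cnr1 (0.563), Daglb (0.133), Napepld (0.233) and Abhd6 (0.339). The whole gene gave Faah 0.594, and a shift by 500 bp gave its tile from 116021001 1.90. The cause of these changes was not tested.

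Leaving out 1 library gave ranges across zero at the starts of Cnr1 (-0.267 to 0.487), Cnr2 (-3.75 to 0.0781), Napepld (-0.472 to 0.246), Faah (-0.131 to 0.537) and Abhd6 (-0.849 to 0.0694), and at the bodies of Cnr1 (-1.52 to 2.35), Dagla (-0.212 to 0.803), Daglb (-0.519 to 0.279), Napepld (-0.845 to 0.217) and Faah (-1.92 to 1.23).

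Numbers 2 and 3 occur in both groups but did not pair libraries (correlation of deviations 0.0258 and -0.0171 over tiles). With them as a replicate block over 4 libraries, 8 tiles of the genome were called, against 0 in the fit of all 9 libraries without a block. These fits differ in their libraries as well as in the block, so the part of each cannot be told apart. In the block fit the starts of Cnr1 (0.523), Cnr2 (1.10) and Napepld (0.758) and the bodies of Dagla (-0.495), Napepld (0.978) and Faah (0.284) changed sign. Leaving out 1 library called 0 to 1 tiles, the 1 without Control 4. Levels by role moved with the window: within 500 bp receptors, synthesis and breakdown starts read 39.3, 1.78 and 2.35%, within 2000 bp 47.0, 13.0 and 12.3%. Breakdown starts read 3.20% with 20 calls per cytosine. With CpGs listed in all 9 libraries, synthesis starts read 3.34%, breakdown starts 1.97% and synthesis bodies 87.0%.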
